A study of Mus musculus with 3 samples.

Results

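The 35 genes described here act in the G2 phase and mitosis of the cell cycle. They were listed by name and matched by Ensembl ID in the 3 libraries, where all 35 were found among 27040 shared genes. The study dissected a region around the dorsal midline of the mouse pallium, dissociated it and sequenced single cells with the 10x Genomics 3′ v3 chemistry (C57BL/6J strain). The wild-type suspension pooled 4 E11.5 embryos carrying PGKCre and Rosa26YFP with 4 E12.5 embryos carrying Wnt3aCre and Rosa26tdTomato, and gave 2 libraries. The knockout library came from 4 E12.5 Gmnc-/- embryos, for which the labels name no reporter. Gmnc encodes a geminin-related protein that starts the multiciliated cell programme. Embryos were pooled in each suspension. Stage, transgenes, genotype and the Cell Ranger version in the file headers cannot be told apart between the groups.

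Each genotype is 1 suspension, so no test between genotypes was possible and no p-value is given. The wild-type libraries are technical repeats counted as 1 sample. All intervals cover counting error only. They were computed at 95%, as exact Poisson intervals for levels and exact Clopper-Pearson intervals for shares of cells. After filtering and removal of predicted doublets, 8526, 7477 and 12865 cells were used in the first wild-type library, the other wild-type library and then the knockout, with median depths of 11590.5, 12788 and 8618 UMIs. A set of 3 values below follows that order. The 2 wild-type libraries shared 1914 cell barcodes, of which 28 belonged to used cells of both. Used cells whose barcode occurred anywhere in the other wild-type library numbered 366 in the first and 887 in the other. For pairs with the knockout library such cells numbered 31 to 54. The cause of this overlap was not tested. Levels (CPM) are the UMIs of a gene per 1000000 UMIs of a cell class in a library. A gene was called lower or higher at a difference of at least 2-fold against each wild-type library, where the group with more of it reached 50 UMIs and 20 CPM and the intervals did not overlap. Genes that reached this UMI and CPM floor are called well measured. Log2 ratios are of CPM + 1, knockout over the mean of the wild-type libraries.

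Cells cross from G2 into mitosis when Cdk1 is activated by its B-type cyclins, and they leave it when the anaphase-promoting complex (APC/C), with its co-activator Cdc20 and its ubiquitin-conjugating enzyme Ube2c, marks cyclins and securin for destruction. Most of these genes are transcribed together late in the cell cycle, and their products build the spindle, the kinetochore and the cleavage furrow. Cells that make many motile cilia have left the cell cycle, yet they use part of the same machinery, including Cdk1 and APC/C activity, while they amplify centrioles. In the dorsal midline, dividing progenitors of the cortical hem give rise to Cajal-Retzius neurons, and neighbouring epithelium forms the multiciliated choroid plexus.

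Promoters are shown for 4 of the members the results turn on, since genes of this group are known to share 2 short elements: the cell cycle genes homology region (CHR, TTTGAA or TTCGAA) and the CCAAT box. The sequences are the 120 bases before the RefSeq start on GRCm38.p6, written 5′ to 3′ on the gene's strand. Capitals mark a CHR or CCAAT match on either strand, so TTCAAA and ATTGG are matches read from the opposite strand. The regions are chr10:69352913-69353032 (minus strand) for Cdk1, chr4:118437344-118437463 (minus) for Cdc20, chr2:164769809-164769928 (plus) for Ube2c and chr11:99024190-99024309 (minus) for Top2a.
Cdk1: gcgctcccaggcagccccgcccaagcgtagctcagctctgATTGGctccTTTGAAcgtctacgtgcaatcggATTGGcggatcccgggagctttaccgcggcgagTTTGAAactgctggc
Cdc20: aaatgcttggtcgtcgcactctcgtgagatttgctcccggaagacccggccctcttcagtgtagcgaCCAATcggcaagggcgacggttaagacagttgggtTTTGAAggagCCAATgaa
Ube2c: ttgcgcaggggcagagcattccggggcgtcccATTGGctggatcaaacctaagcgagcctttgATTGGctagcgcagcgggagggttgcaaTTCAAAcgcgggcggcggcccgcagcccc
Top2a: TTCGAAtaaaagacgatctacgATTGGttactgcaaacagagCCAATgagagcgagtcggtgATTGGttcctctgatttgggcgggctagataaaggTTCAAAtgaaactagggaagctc

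RefSeq promoters, from 250 bases before to 50 after the start, were found for 30 of the 35 members (31 promoters). A CHR in either form was present in 25 of 31 (80.6%), against 19.2% of all 32851 promoters and 20.6% of the 34 promoters of S phase genes. A CCAAT box was present in 74.2% of the member promoters, 37.4% of all promoters and 70.6% of the S phase promoters. Both elements together were found in 67.7% of the member promoters and in 7.52% of all. An E2F-type element (GCGGGAA or GCGCGAA, either strand) was in 6.45% of the member promoters, 6.00% of all promoters and 61.8% of the S phase promoters. The CHR and E2F-type elements therefore separated this list from the S phase list, while the CCAAT box was frequent in both. Cdk1 was 1 of the 2 members with an E2F-type match and Hmmr was the other. No match of any element was found in this window for Birc5, Nuf2, Nusap1 or Tacc3. A match is a description of the letters and not of binding.

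Cell classes were named from markers after clustering without cell cycle genes. Hem progenitor-like cells (1686, 1480 and 1957 cells) carried Wnt3a and R-spondin genes. The other main classes were pallial progenitor-like (3143, 2646 and 4990 cells), intermediate progenitor-like (703, 643 and 1073), choroid plexus-like (1226, 1055 and 1491) and neurons (863, 788 and 976). Neurons were split into Cajal-Retzius-like (601, 545 and 571) and other neurons (262, 243 and 405). Sub-cluster 4 of the neurons (159, 152 and 0 cells) is counted as Cajal-Retzius-like by its Cajal-Retzius marker score (1.22), although its intermediate progenitor score was higher (2.42) and its neuron score was -0.10. It is called here by its number, and results on that class are also given without it. Sub-cluster 7 (3, 6 and 175 cells) scored 2.756 for Cajal-Retzius and 1.756 for other pallial neuron markers. It is thus only just past the margin of 1 asked between neuron types, and the class was not taken without it. Knockout Cajal-Retzius-like cells numbered 252 with predicted doublets kept and 258 when clustering only cells with at least 4000 UMIs. Different clusters held most of some classes in the 2 genotypes. Of the pallial cells, clusters 4, 9 and 15 held 1262, 1247 and 501 in the knockout, while clusters 0 and 2 held most in the wild type. Cluster 5 held 1075 of the knockout choroid plexus cells (344 and 273 in the wild type). All 976 knockout neurons lay in cluster 6, against 269 and 253 wild-type cells. Cluster 11, of 594 and 535 wild-type neurons led by Cdkn1a, Lhx1 and Trp73, had 0 knockout cells. Cluster 14, a choroid plexus cluster led by motile cilia genes, had 346, 323 and 3 cells.

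The targeted gene did not check the labels: Gmnc was counted in the knockout too, at 66.7, 73.2 and 196 CPM in choroid plexus-like cells. The place of these reads relative to the deletion was not examined here. The multiciliation genes Ccno and Mcidas did separate the libraries. In Cajal-Retzius-like neurons Ccno stood at 668, 646 and 0 CPM, and in choroid plexus-like cells at 113, 123 and 0.35 CPM. Haemoglobin and other erythroid marker transcripts summed to 237 to 277 CPM in wild-type and 1920 CPM in knockout hem progenitor-like cells, and were higher in the knockout in each main class (4763 CPM in choroid plexus-like cells). Their part in the results below was not tested.

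In wild-type cells the 35 members were near the same level in hem and pallial progenitors, somewhat lower in intermediate progenitors and choroid plexus, and far lower in neurons. Summed over the list they reached 5687 and 5496 CPM in hem progenitors and 5448 and 5630 CPM in pallial progenitors. Intermediate progenitors had 4470 and 4696 CPM and choroid plexus cells 4923 and 5378 CPM. Cajal-Retzius-like neurons had 1094 and 946 CPM and other neurons 417 and 429 CPM. Fewer dividing cells in a class and less RNA per dividing cell cannot be told apart in such sums.

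Agreement between the wild-type repeats sets the scale for single genes. The median absolute log2 difference between them was 0.06 in hem progenitors, 0.05 in pallial progenitors, 0.10 in intermediate progenitors and 0.13 in choroid plexus cells, over all 35 members. The largest was 0.43, for Anln in intermediate progenitors. In Cajal-Retzius-like neurons, where 23 members had at least 100 UMIs, the median was 0.26 and Ccna2 differed by 0.76 between the repeats.

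**Figure D1:**
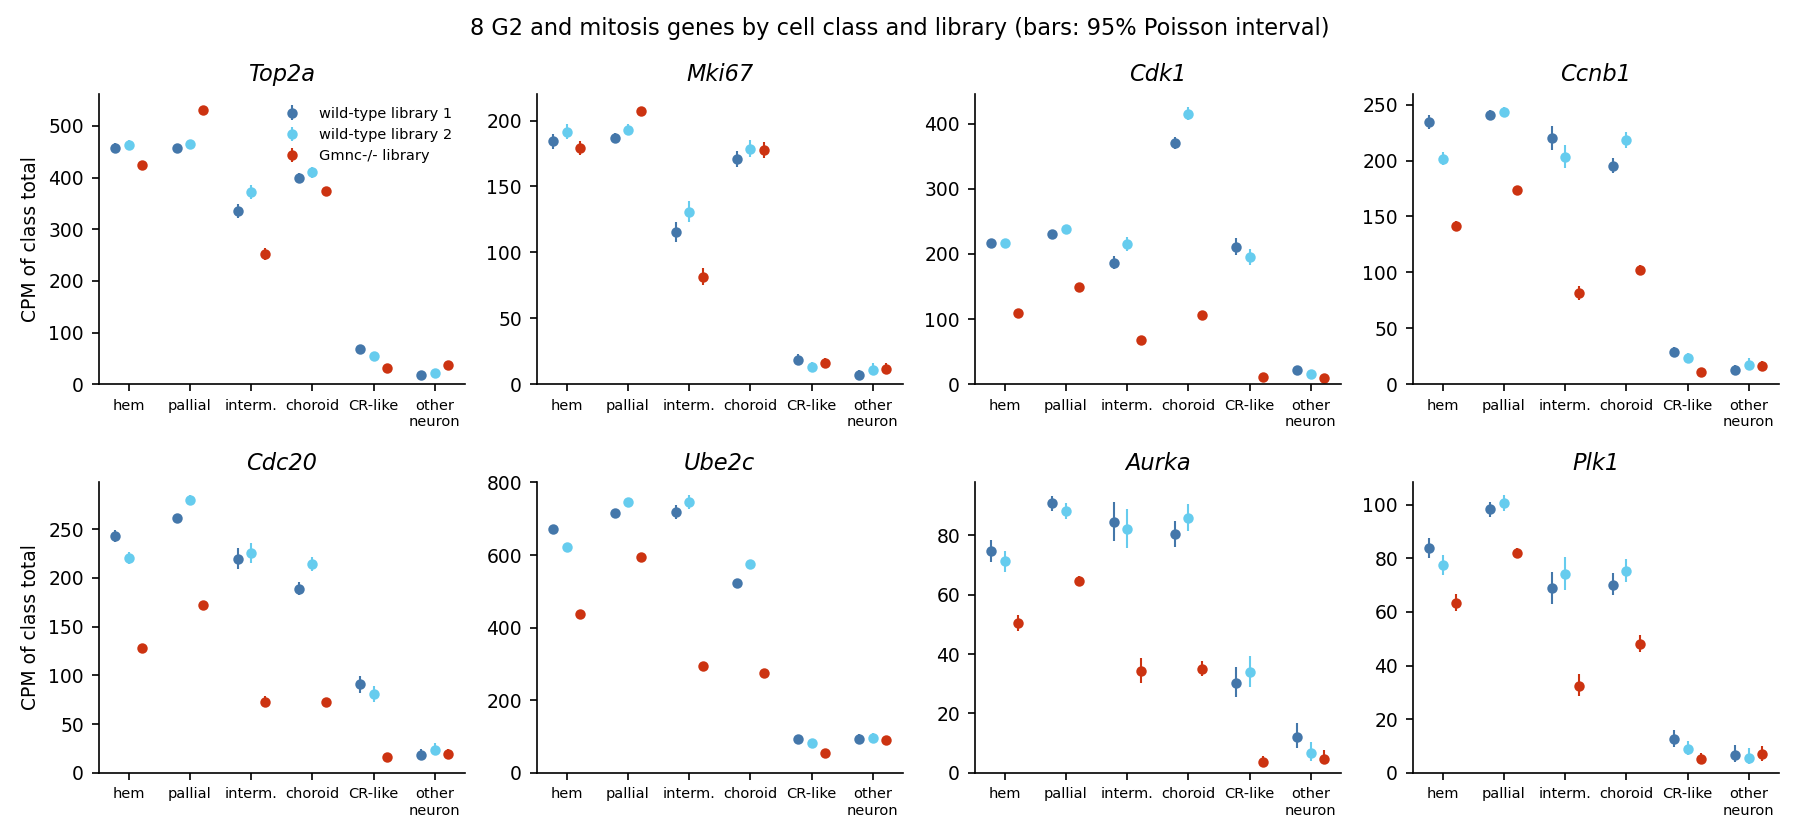
Levels of 8 members (CPM of the class total, linear axis from 0) in 6 cell classes, with wild-type library 1 in dark blue, wild-type library 2 in light blue and the knockout in red, and exact Poisson 95% intervals as bars. Cdk1 and Cdc20 are lower in the knockout in each of the 4 progenitor and choroid plexus classes, while Top2a and Mki67 differ less, and Cdk1 in wild-type Cajal-Retzius-like neurons is near the progenitor level when sub-clusters 3 and 4 are counted in, as drawn.

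Among the kinase and cyclin genes of mitotic entry, Cdk1 followed a different order from its partners. Cdk1 stood at 217 and 217 CPM in wild-type hem progenitors, 231 and 238 CPM in pallial progenitors and 186 and 215 CPM in intermediate progenitors. It was highest in choroid plexus cells (370 and 415 CPM) and was still 211 and 195 CPM in Cajal-Retzius-like neurons, beside 21.2 and 15.1 CPM in other neurons. In library 1 the intervals of hem progenitors and Cajal-Retzius-like neurons overlapped for this gene, so their order was not resolved there. Without sub-cluster 4, Cajal-Retzius-like neurons had 168 and 144 CPM of Cdk1, and without sub-clusters 3 and 4 only 75.8 and 68.1 CPM. Ccnb1, the B-type cyclin that activates Cdk1, was 234 and 201 CPM in hem progenitors, 220 and 203 CPM in intermediate progenitors and 195 and 218 CPM in choroid plexus cells. In Cajal-Retzius-like neurons Ccnb1 was only 28.5 and 23.3 CPM, and Ccna2, the A-type cyclin, only 18.1 and 10.3 CPM.

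Cdc20, the APC/C co-activator that starts anaphase, was 243 and 220 CPM in hem progenitors, 261 and 280 CPM in pallial progenitors and 220 and 225 CPM in intermediate progenitors of the wild type. It was 189 and 214 CPM in choroid plexus cells and 90.6 and 80.6 CPM in Cajal-Retzius-like neurons, above the 18.6 and 23.6 CPM of other neurons without overlap of the intervals. It was 70.3 and 62.7 CPM in the former without sub-cluster 4 and 32.3 and 33.3 CPM without sub-clusters 3 and 4. Ube2c, its partner enzyme, was 671 and 622 CPM in hem progenitors, 717 and 745 CPM in pallial and 719 and 746 CPM in intermediate progenitors, and 524 and 574 CPM in choroid plexus cells. Unlike Cdc20, Ube2c did not separate the neurons, with 94.4 and 82.4 CPM in Cajal-Retzius-like and 93.4 and 96.4 CPM in other neurons. Cdc20b, a relative of Cdc20 known from multiciliated cells, was at most 0.05 CPM in hem progenitors. It was 11.7 and 11.9 CPM in choroid plexus cells and 11.3 and 7.5 CPM in Cajal-Retzius-like neurons. No Cdc20b UMI was counted in any class of the knockout, and the upper 95% limit for 0 UMIs in its choroid plexus cells was 0.18 CPM.

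Aurka, the kinase of centrosome maturation and spindle assembly, ranged over 74.7 and 71.2 CPM in hem progenitors, 90.8 and 88.2 CPM in pallial progenitors, 84.6 and 82.1 CPM in intermediate progenitors and 80.3 and 85.9 CPM in choroid plexus cells. In Cajal-Retzius-like neurons it was 30.2 and 33.8 CPM and in other neurons 12 and 6.65 CPM. Plk1, the polo-like kinase of mitosis, kept 83.8 and 77.4 CPM in hem, 98.3 and 101 CPM in pallial and 68.8 and 74.3 CPM in intermediate progenitors, and 70.2 and 75.4 CPM in choroid plexus. Plk1 was low in both kinds of neuron, at 12 and 8.91 CPM in Cajal-Retzius-like and 6.57 and 5.54 CPM in other neurons. In Cajal-Retzius-like neurons without sub-clusters 3 and 4, Aurka was 15.7 and 10.9 CPM and Plk1 10.6 and 8.09 CPM, with overlapping intervals. The higher level of Aurka than of Plk1 was thus not resolved without those sub-clusters.

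The 2 chromosome proteins commonly used to mark dividing cells behaved like Plk1. Top2a, which untangles sister chromatids, was 457 and 464 CPM in hem progenitors, 457 and 466 CPM in pallial progenitors, 335 and 372 CPM in intermediate progenitors and 399 and 410 CPM in choroid plexus cells. It stood at 67.5 and 54.3 CPM in Cajal-Retzius-like and 17.9 and 22.2 CPM in other neurons. Mki67, which coats mitotic chromosomes, was 184 and 191 CPM in hem, 187 and 193 CPM in pallial and 115 and 131 CPM in intermediate progenitors, 171 and 179 CPM in choroid plexus, and 18.5 and 13 CPM in Cajal-Retzius-like neurons.

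No member was called between wild-type hem progenitors and pallial progenitors, intermediate progenitors or choroid plexus cells. The share of all well-measured genes called lower and higher was 4.75% and 1.75% for pallial, 6.22% and 4.88% for intermediate progenitors and 3.44% and 6.11% for choroid plexus. The median log2 ratio of the 35 members against hem progenitors was 0.00, -0.42 and -0.20, beside -0.09, -0.11 and -0.01 over all genes. The choroid plexus median turned to 0.03 when clusters were required to hold 20 or more cells from both genotypes, which leaves out cluster 14. In pallial progenitors the ends of the list were Cenpf, Ccnb2 and Anln (-0.45, -0.40 and -0.34) and Plk1, Aurka and Kif20a (0.30, 0.29 and 0.28). In intermediate progenitors they were Cenpf, Ttk and Nuf2 (-0.68, -0.66 and -0.66) and Aurka, Ube2c and Kif2c (0.19, 0.18 and 0.03). In choroid plexus cells Cdk1 stood apart at 0.85, followed by the cytokinesis scaffold Anln (0.29) and Ccnb2 (0.24), while Ckap2l, Ckap2 and Kif23 were lowest (-0.43, -0.41 and -0.40).

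Against hem progenitors, 33 of 35 members were called lower in wild-type neurons and none higher, beside 11.9% and 11.7% of all genes. The median of the members was -3.02 on the log2 scale, and -0.01 over all genes. The members lowered most were Nusap1 (-3.77), Mki67 (-3.72) and Cenpf (-3.67), a spindle protein, a chromosome protein and a kinetochore protein. The 2 members that were not called lower were Cdk1 (-0.66) and Ckap2 (-1.01), a microtubule-associated spindle protein, followed by Aurka (-1.57), the cytokinesis kinesin Kif20b (-1.80) and Cdc20 (-1.87). Cdk1 differed between the sub-clusters of the neurons. In the wild type it was 325 and 320 CPM in sub-cluster 4, 288 and 257 CPM in sub-cluster 3 and 71.9 and 57.6 CPM in sub-cluster 1. Sub-cluster 4 had higher intermediate progenitor than neuron marker scores (2.42 against -0.10), sub-cluster 3 had 1.76 against 1.40 and sub-cluster 1 had 1.01 against 3.03. Of these 3 sub-clusters, the 2 with the higher intermediate progenitor scores had the higher Cdk1. Without sub-clusters 3 and 4, Cdk1 was 75.8 and 68.1 CPM in wild-type Cajal-Retzius-like neurons. The order of the members against hem progenitors was not taken without them.

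**Figure D2:**
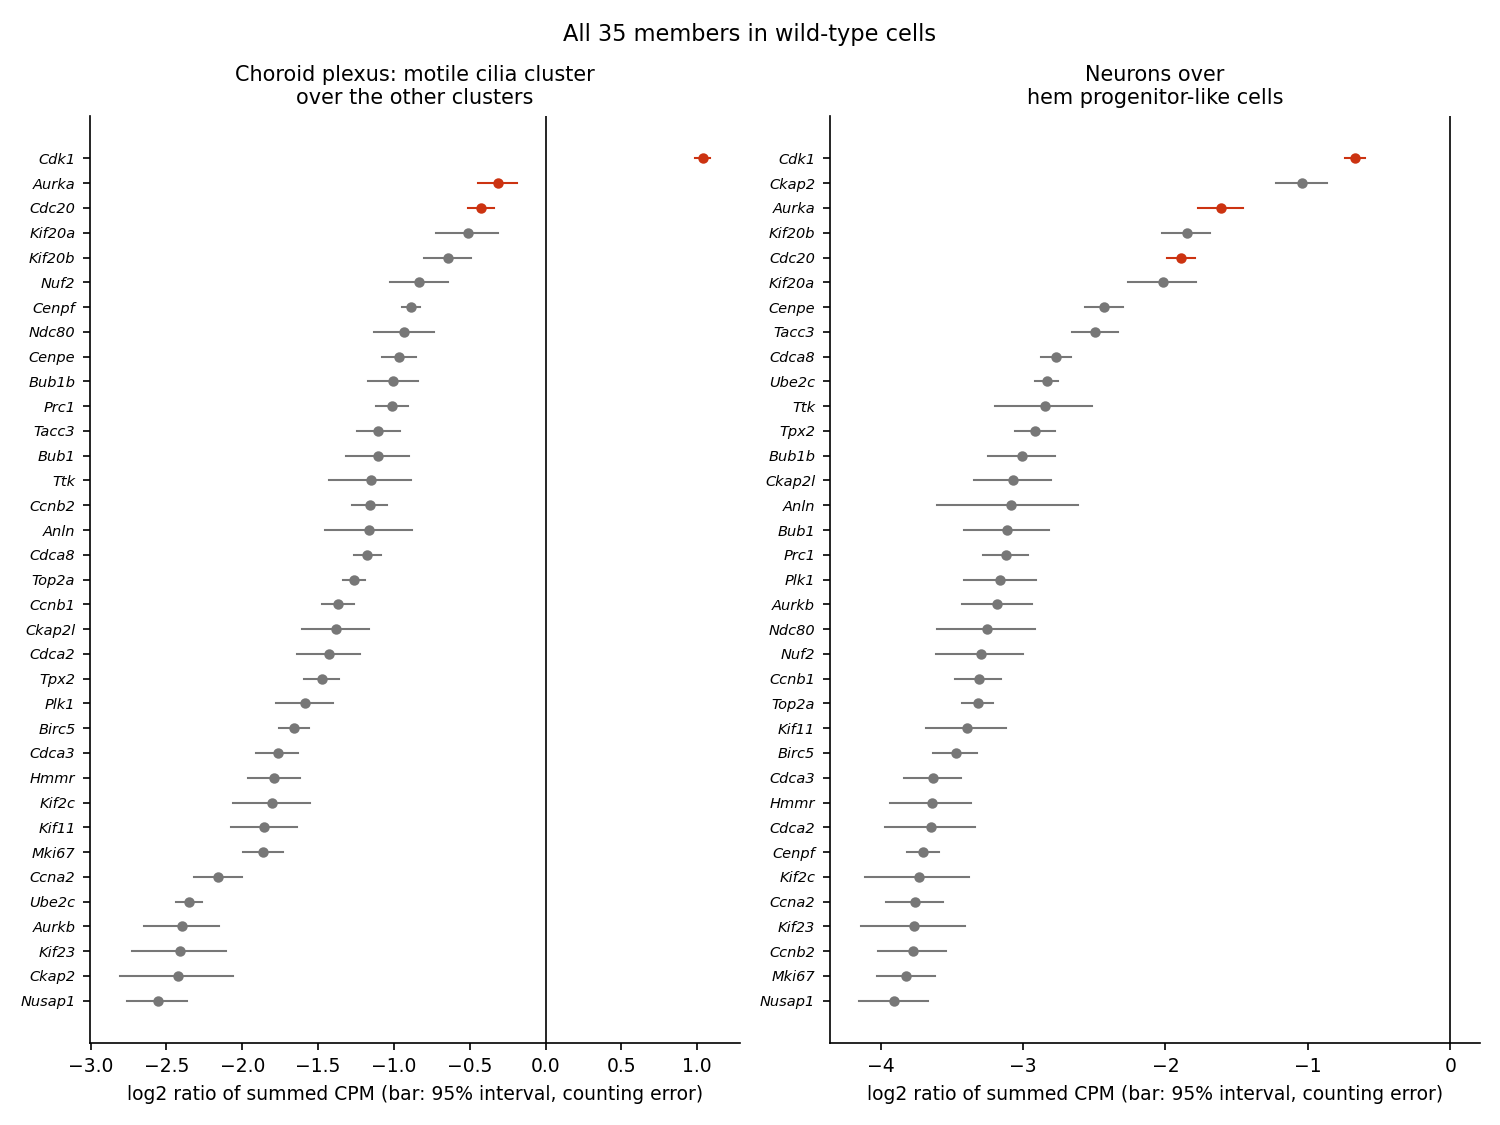
Log2 ratio of summed CPM (x axis, no pseudocount, bars are 95% intervals for counting error) for each of the 35 members in wild-type cells, sorted by ratio, with Cdk1, Cdc20 and Aurka in red. In the motile cilia cluster of the choroid plexus Cdk1 is the only member above 0, and in neurons Cdk1 is the least lowered member.

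The choroid plexus cluster led by motile cilia genes, almost only found in the wild type, had lower levels of most members but a higher level of Cdk1. Against the other choroid plexus clusters of the wild type, 24 of 35 members were called lower and none higher, beside 3.61% and 7.05% of all genes, with a median of -1.26 (all genes -0.02). Cdk1 was 603 and 641 CPM there. In the same comparison Cdk1 had a log2 ratio of 1.03, a fold of 2.05 (1.98 to 2.12), without reaching 2-fold against each library. Next came Aurka (-0.32), Cdc20 (-0.43) and Kif20a (-0.50), a kinesin of the late spindle, none of them called. The lowest were Nusap1 (-2.52), Ube2c (-2.34) and Aurkb (-2.34), the chromosomal passenger kinase.

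Ube2c was lowered more than Cdc20 in these cells. Cdc20 was 159 and 164 CPM in the motile cilia cluster, while Ube2c was 142 and 135 CPM, and Fbxo5, the APC/C inhibitor of S and G2 phase, was 15.9 and 18.2 CPM against 96.8 and 95.8 CPM in the other clusters. Cdc20b was called higher, with 43.9 and 38.0 CPM against 0.42 and 1.09 CPM, a log2 ratio of 4.58. Fzr1, the co-activator that acts after anaphase and in G1, was 35.1 and 40.1 CPM against 66.2 and 70.1 CPM and was not called. Of the 19 APC/C subunits and regulators other than the members, only Fbxo5 (lower) and Cdc20b (higher) were called. Over all genes 3.61% were called lower and 7.05% higher, so these counts are near the background. The Cdk inhibitor Cdkn1a was also higher in these cells (log2 ratio 2.93).

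Cells of the motile cilia cluster differed from the other choroid plexus clusters in how members were spread over cells. After thinning to 4000 UMIs, 64.8% (59.5 to 69.9) and 70.2% (64.9 to 75.2) of them had at least 5 members detected, against 55.4% and 57.9% in the other wild-type choroid plexus clusters. Yet 17.7% and 22.3% had at least 10, against 41.1% and 45.0%. Cells with at least 5 members held a mean of 14.1 and 13.8 member UMIs in the motile cilia cluster and 33.7 and 38.3 in the others. Cdk1 was detected in 84.9% (80.7 to 88.5) and 90.9% (87.2 to 93.8) of thinned motile cilia cells, against 47.5% and 51.0% of the others. Unthinned, these Cdk1 shares were 95.4% and 97.5%, against 68.1% and 70.8%. Other neurons, the wild-type class with least Cdk1, had it in 10.2% and 6.90% of thinned cells, which is read here as the background share.

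Between genotypes, the direction of the difference was mostly the same over the list, but its size depended on the class and the gene. In hem progenitors no member was called in either direction among 35 well measured, beside 0.986% of all genes lower and 3.72% higher. The median was -0.37 (all genes -0.04), with 31 members below 0. Cdk1 was 217, 217 and 109 CPM, a log2 ratio of -0.98 and 1.98-fold lower (1.90 to 2.07). Both wild-type libraries lay above the knockout. Cdc20 was 243, 220 and 128 CPM (-0.85) and Aurkb 83.3, 86.2 and 46.5 CPM (-0.85). The highest ratios were 0.22 for Nusap1, 0.15 for Kif23, a kinesin of the central spindle, and 0.09 for Cenpf. Top2a (457, 464 and 425 CPM) and Mki67 (184, 191 and 179 CPM) differed little. The 2 hem clusters differed in extent. Cluster 3 had a median of -0.51 and Cdk1 called lower (-1.12, beside 0.911% of all genes lower and 3.33% higher), and cluster 1 a median of -0.16 with no member called (1.06% lower and 3.55% higher).

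Pallial progenitors showed less difference. Of 34 well-measured members none was called, beside 1.02% of all genes lower and 3.09% higher, and the median was -0.14 (all genes -0.09). Aurkb was lowest at 96.0, 96.4 and 58.8 CPM (-0.70), then Cdc20 at 261, 280 and 172 CPM (-0.65) and Cdk1 at 231, 238 and 150 CPM (-0.64). Nusap1 was highest at 122, 122 and 180 CPM (0.55), then Kif23 (0.45) and Prc1 (0.34), which bundles midzone microtubules. Top2a was 457, 466 and 532 CPM and Mki67 187, 193 and 207 CPM. Cdk1, Cdc20 and Aurkb were thus at the low end and Nusap1 and Kif23 at the high end, as in hem progenitors.

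Intermediate progenitors had the broadest difference. All 34 well-measured members were below 0 and 13 were called lower, none higher, beside 1.86% of all genes lower and 3.15% higher. The median was -0.84 (all genes -0.09). Cdc20 was 220, 225 and 72.9 CPM, 3.06-fold lower (2.80 to 3.34). Cdk1 was 186, 215 and 68.3 CPM, 2.94-fold lower (2.68 to 3.23). For both genes the wild-type libraries stood close together and far above the knockout. Also called lower were the cyclins Ccna2 (-1.43), Ccnb1 (-1.37) and Ccnb2 (-1.06) and the kinases Aurkb (-1.54), Aurka (-1.26) and Plk1 (-1.11). The remaining 5 were Ube2c (-1.31), the spindle protein Tacc3 (-1.29), the checkpoint protein Bub1b (-1.28), the phosphatase-targeting protein Cdca2 (-1.24) and the microtubule-depolymerizing kinesin Kif2c (-1.11). Ube2c was 719, 746 and 294 CPM and Plk1 68.8, 74.3 and 32.6 CPM. The smallest differences were in Nusap1 (112, 124 and 89.8 CPM, -0.39), Top2a (335, 372 and 252 CPM, -0.49) and Prc1 (133, 146 and 94.9 CPM, -0.55). Median depth in this class was 9781, 10761 and 6481 UMIs, and the count of 13 went to 7 with predicted doublets kept and to 8 when genes that go with the cell cycle lists were allowed in the clustering.

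Most of this came from 1 of the 2 intermediate progenitor clusters. In cluster 13, led by Gmnc, Uncx and Neurog1, all 33 well-measured members were called lower, beside 4.73% of all genes lower and 3.67% higher, with a median of -2.23. The members summed to 4743, 4915 and 970 CPM. Cdk1 was 199, 213 and 22.7 CPM (-3.12), Ccna2 144, 151 and 21.4 CPM (-2.73) and Tacc3 134, 121 and 19.0 CPM (-2.68). The least lowered were Kif20b (-1.76), Prc1 (-1.78) and Cdca3 (-1.81). Neural progenitor markers summed to 2260, 2165 and 1283 CPM in this cluster, neuron markers to 5339, 4936 and 5291 CPM and erythroid markers to 343, 327 and 2657 CPM. Their part in the members' levels was not tested. In cluster 7, led by Plxna2, Sstr2 and Rprm, the members summed to 4324, 4587 and 3196 CPM with a median of -0.41, and Cdc20 (-1.19) and Aurkb (-1.17) were called lower, beside 1.29% of all genes lower and 2.98% higher. Top2a in cluster 7 was 325, 367 and 357 CPM (0.05).

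In choroid plexus-like cells 4 of 35 members were called lower and none higher, beside 3.00% and 3.98% of all genes, with a median of -0.55 (all genes -0.09). Cdk1 was 370, 415 and 106 CPM, 3.68-fold lower (3.52 to 3.86). Cdc20 was 189, 214 and 73.1 CPM, 2.75-fold lower (2.60 to 2.91). Aurka was 80.3, 85.9 and 35 CPM (-1.22) and Ccna2 140, 144 and 62.9 CPM (-1.16). Ube2c was 524, 574 and 274 CPM, Ccnb1 195, 218 and 102 CPM and Plk1 70.2, 75.4 and 48.2 CPM, none of them called. At the other end were Kif23 (0.20), Nusap1 (0.20) and Mki67 (0.02), the last at 171, 179 and 178 CPM.

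Because the wild-type class holds the motile cilia cluster and the knockout does not, the comparison was repeated without it. Then 10 of 35 members were called lower and none higher, beside 2.15% and 4.05% of all genes, with a median of -0.82 and all 35 below 0. Cdc20 (-1.56), Cdk1 (-1.51) and Ccna2 (-1.50) were lowest and Kif23 (-0.16), Nusap1 (-0.18) and Prc1 (-0.25) highest. The other members called were Aurkb, Ube2c, Aurka, Ccnb2, Ccnb1, Tacc3 and Kif20a, between -1.39 and -1.07. Choroid plexus markers summed to 12927, 14392 and 43227 CPM in these clusters, so knockout cells carried more of the differentiated markers. The part of this in the members' levels was not tested. Without wild-type library 1, the count over the whole class was 9 in place of 4.

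Neurons gave the most uneven differences, and these depended on which clusters were compared. In Cajal-Retzius-like neurons 15 of 35 members were well measured, 9 were called lower and none higher, beside 9.83% and 6.07% of all genes. Members reach the floor through their higher side, so this count favours those that differ. The median was -1.35 over those 15 and -0.98 over all 35 (all genes -0.16). Cdk1 was 211, 195 and 10.7 CPM, 18.9-fold lower (14.5 to 25.2). Aurka was 30.2, 33.8 and 3.70 CPM (-2.81) and Cdc20 90.6, 80.6 and 15.8 CPM, 5.42-fold lower (4.31 to 6.90). Both wild-type libraries were far above the knockout for each. The other members called were Kif20b (-2.08), Ckap2 (-2.03), Tacc3 (-1.91), the kinetochore motor Cenpe (-1.50), the spindle assembly factor Tpx2 (-1.35) and Ccnb1 (-1.20). The passenger protein Birc5 was highest (0.05), then Cenpf (-0.63) and Ube2c (94.4, 82.4 and 54.2 CPM, -0.70). Top2a was 67.5, 54.3 and 31.6 CPM and Mki67 18.5, 13 and 16 CPM.

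Markers of other cell types moved with this difference. In the same cells intermediate progenitor markers summed to 3202, 3189 and 1819 CPM, neural progenitor markers to 1712, 1738 and 1317 CPM and erythroid markers to 372, 592 and 2992 CPM. Neuron markers summed to 9376, 8964 and 13472 CPM and Cajal-Retzius markers to 1276, 1250 and 2080 CPM. Their part in the members' levels was not tested. Sub-clusters 3 (190, 158 and 3 cells) and 4 held wild-type cells almost alone.

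The count of members called changed with these sub-clusters. Without sub-cluster 4, 7 of 15 well-measured members were called lower and none higher, beside 9.26% and 5.23% of all genes, with a median of -0.92. Cdk1 was then 168, 144 and 10.7 CPM (-3.74) and Cdc20 70.3, 62.7 and 15.8 CPM (-2.01). Without sub-clusters 3 and 4, 2 of 8 were called lower and none higher, beside 8.22% and 4.59% of all genes, with a median of -0.29 (all genes -0.16). They were Cdk1 (75.8, 68.1 and 10.7 CPM, 6.68-fold lower, 4.99 to 9.08) and Ckap2 (-2.07). Cdc20 was 32.3, 33.3 and 15.8 CPM (-1.01) and was not called. Top2a was 38.4, 24.3 and 31.7 CPM, so the knockout lay within the wild-type range. Intermediate progenitor markers still summed to 2253, 2358 and 1819 CPM in these cells, while neuron markers summed to 14865, 14052 and 13480 CPM. Sub-cluster 0, the main sub-cluster of knockout Cajal-Retzius-like neurons, held 21, 22 and 393 cells. In it the members summed to 647 (537 to 774), 604 (501 to 721) and 351 (331 to 371) CPM, and Cdk1 was 103, 125 and 10.7 CPM. The knockout was below both wild-type libraries there without overlap of the intervals. Those intervals cover counting error and not the spread between the 21 and 22 wild-type cells.

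The whole class set wild-type cells of cluster 11 (594 and 535 of them) against knockout cells of cluster 6 (571). Within cluster 6, which holds cells of both genotypes, 7 members were well measured and none was called, beside 1.97% of all genes lower and 3.63% higher, with a median of 0.29 over those 7 and 0.03 over all 35. Cdk1 was 24.3, 17.5 and 10.3 CPM there (-0.95), 2.02-fold lower (1.53 to 2.69), and Cdc20 was 18.6, 23.2 and 17.3 CPM (-0.26). Top2a was highest at 18.2, 21.4 and 34.0 CPM (0.75). Only 7 and 10 wild-type Cajal-Retzius-like cells lay in cluster 6, too few to compare that class within it. At resolution 2 the count of members called lower in Cajal-Retzius-like neurons was 2 and the median -0.26. The share of all genes called was not taken at that setting.

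Over all neurons together, 6 of 15 well-measured members were called lower and none higher, beside 6.15% and 3.87% of all genes: Cdk1 (142, 131 and 10.3 CPM, -3.60), Aurka (-2.27), Ckap2 (-1.83), Cdc20 (64.4, 60.4 and 17.3 CPM, -1.79), Kif20b (-1.75) and Tacc3 (-1.28). Birc5 (0.14), Cenpf (-0.35) and Prc1 (-0.35) were highest. The median was -0.75 over the 15 and -0.61 over all 35, and it turned to 0.25 at resolution 2, 0.40 with doublets kept, 0.29 in clusters with cells of both genotypes and 0.20 without sub-clusters 3 and 4. The count of 6 was 3 without sub-cluster 4 and 1 without sub-clusters 3 and 4. The share of all genes called was not taken for these counts. In other neurons none of 7 well-measured members was called, beside 2.04% and 3.25% of all genes. Top2a (17.9, 22.2 and 37.4 CPM, 0.87), Cdca8 (0.66) and Cenpf (0.44) were highest there and Cdc20 (18.6, 23.6 and 19.3 CPM, -0.12) lowest.

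**Figure D3:**
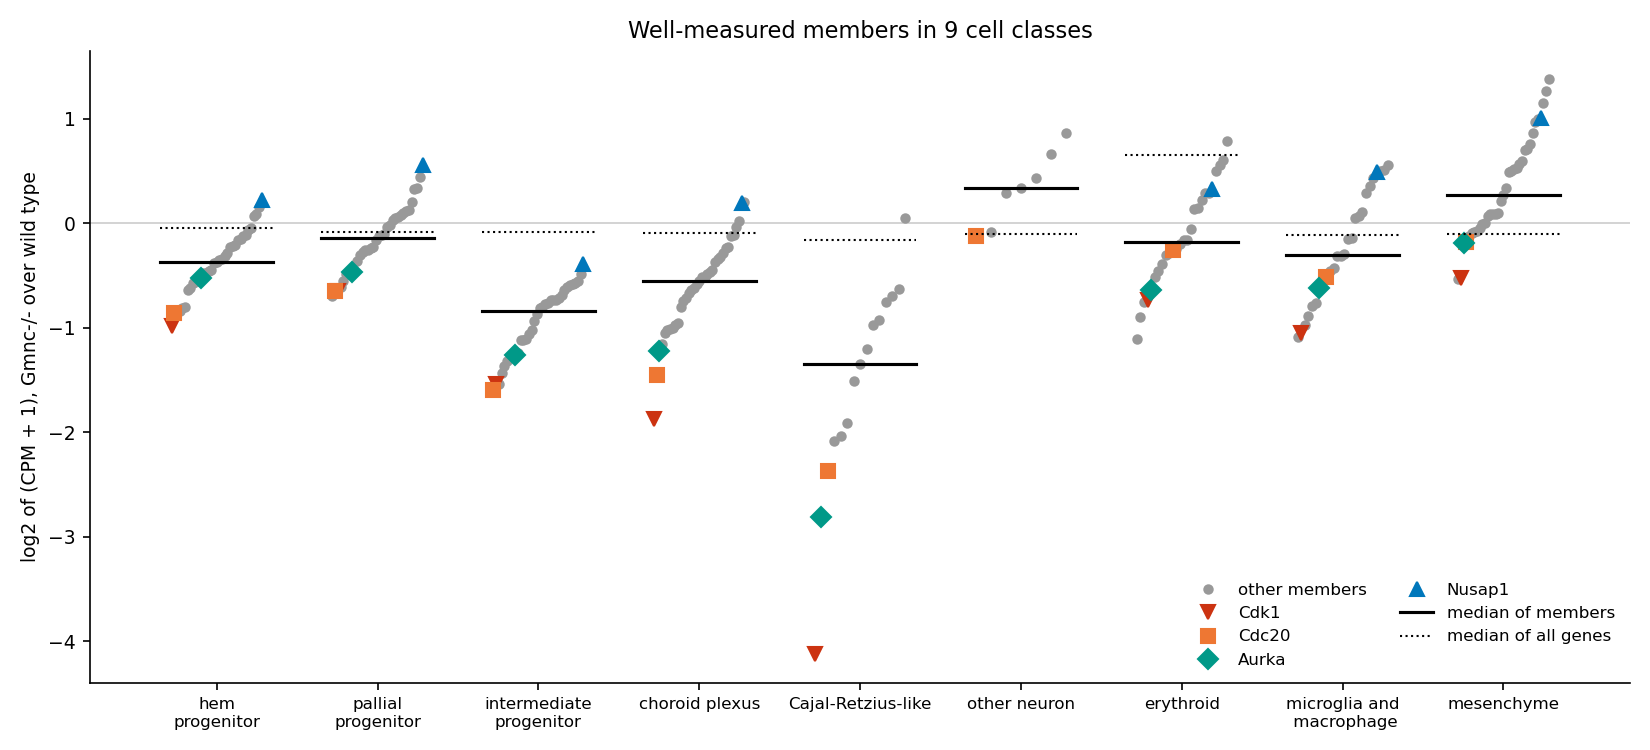
Log2 ratio of knockout over wild type (y axis, CPM + 1) for each well-measured member in 9 cell classes, sorted within a class, with solid lines at the median of the members and dotted lines at the median of all well-measured genes. Cdk1, Cdc20 and Aurka lie toward the low end and Nusap1 toward the high end in most classes, including erythroid cells, microglia and mesenchyme.

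Cdk1 was also lower outside the neural lineages. Cdk1 had a ratio of -0.74 in erythroid cells (86.7, 103 and 56.6 CPM), -1.05 in microglia and macrophages (298, 264 and 135 CPM) and -0.53 in mesenchyme (171, 154 and 112 CPM). Over 9 classes Cdk1 was well measured in 8 and below 0 in all 8, and Cdc20 was below 0 in 9 of 9. Aurka was below 0 in 8 of 8, and Aurkb, Ccna2, Ccnb2 and Cdca3 in 7 of 7. Nusap1 was above 0 in 6 of 7 and Kif23 in 5 of 6. Per the file headers the knockout matrix was made with a later Cell Ranger version. It lists 32285 features, against 28001 in each wild-type matrix. Such differences in processing cannot be told apart from genotype in single-gene shifts shared by many classes. The 9 classes come from the same libraries, so they are not independent of each other.

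Counts outside the neural lineages were small. In erythroid cells 1 of 26 well-measured members was called, Ccna2 (132, 123 and 58.7 CPM, -1.10), beside 5.13% of all genes lower and 35.2% higher. Cluster 20, with 145 knockout and 0 wild-type cells, belongs to that class. The lowest after Ccna2 were Aurkb (-0.89) and Ccnb2 (-0.75), and the highest were Prc1 (0.78), Cenpf (0.60) and Kif20b (0.55). In microglia and macrophages (36, 34 and 72 cells) Aurkb was called lower (-1.09), beside 2.29% lower and 3.08% higher. Cdk1 (-1.05) and Ccnb1 (-0.97) came next, and Tpx2 (0.56), Mki67 (0.51) and Hmmr (0.50) were highest. In mesenchyme (73, 70 and 160 cells) the direction was the opposite, with 3 of 35 members called higher and none lower, beside 3.13% and 1.91%. They were the spindle protein Hmmr (58.7, 68.8 and 167 CPM, 1.38), Prc1 (120, 101 and 267 CPM, 1.26) and Cenpf (179, 189 and 409 CPM, 1.15). Aurkb (-0.54), Cdk1 (-0.53) and Aurka (-0.19) were lowest in mesenchyme too.

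The share of cells with several members detected was also taken. At 4000 UMIs a cell, at least 5 members were detected in 57.7%, 61.2% and 53.4% of hem progenitors and 71.6%, 71.8% and 69.2% of pallial progenitors. In intermediate progenitors the shares were 34.2% (30.7 to 37.9), 39.4% (35.6 to 43.3) and 21.6% (19.1 to 24.3). In choroid plexus cells they were 58.1% (55.3 to 60.9), 61.7% (58.7 to 64.7) and 41.2% (38.6 to 43.9). The intervals of the knockout lay below both wild-type libraries in the last 2 classes. Thinning left out 0.711%, 0.933% and 7.74% of intermediate progenitors and 0.571%, 1.71% and 7.38% of choroid plexus cells. Unthinned, the shares were 51.2%, 55.5% and 26.7% in intermediate progenitors and 75.5%, 80.1% and 51.0% in choroid plexus. The hem difference of -5.96 percentage points, knockout minus the wild-type mean, was -2.95 without the barcodes found in both wild-type libraries.

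**Figure D4:**
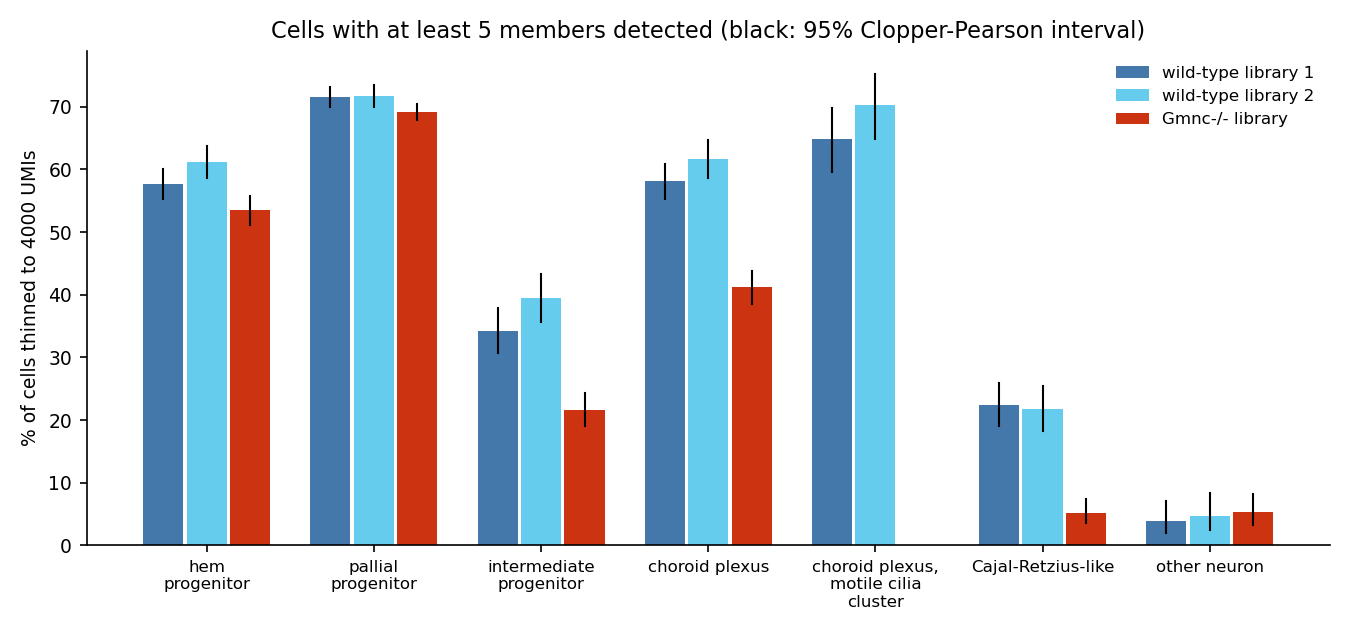
Percent of cells thinned to 4000 UMIs with at least 5 of the 35 members detected (y axis from 0), by cell class and library, with exact Clopper-Pearson 95% intervals in black. The knockout is lowest in intermediate progenitors, choroid plexus and Cajal-Retzius-like neurons, and the motile cilia cluster has no knockout bar because it held 3 knockout cells.

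The 2 intermediate progenitor clusters differed here as well. In cluster 13 the thinned shares were 33.3%, 38.6% and 8.04%, and in cluster 7 they were 34.8%, 39.9% and 31.7%. Among the knockout cells that did have at least 5 members, the mean number of member UMIs was 24.8 in cluster 13, beside 40.8 and 35.4 in the wild type. Cajal-Retzius-like neurons had 22.4%, 21.8% and 5.19% (53.7%, 57.2% and 15.6% unthinned), and other neurons had 3.92%, 4.74% and 5.38%. Without sub-cluster 4 the thinned shares were 16.2%, 16.2% and 5.19%, and without sub-clusters 3 and 4 they were 7.72% (4.71 to 11.8), 6.49% (3.68 to 10.5) and 5.22% (3.52 to 7.41), with intervals that overlapped. At 10 members the shares over the whole class were 2.88%, 0.750% and 0.537% in Cajal-Retzius-like neurons. Cdk1 in those neurons was seen in 48.6%, 43.9% and 3.58% of thinned cells (64.4%, 65.0% and 8.06% unthinned). Of the wild-type ones with Cdk1, 36.9% and 35.9% had 4 or more other members, beside 87.5% and 91.0% of hem progenitors with Cdk1. Without sub-clusters 3 and 4, Cdk1 was seen in 23.6%, 19.9% and 3.60% of thinned cells, and 20.7% and 19.6% of the wild-type ones with Cdk1 had 4 or more other members. Cdk1 was thus more often detected with few other members in these neurons than in hem progenitors.

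Cells of the hem, intermediate progenitor and neuron classes with at least 4000 UMIs were also ordered by a maturation score, neuron markers minus neural progenitor markers, and divided into 10 bins with equal numbers of wild-type cells. The members summed to 5894, 5990 and 4985 CPM in bin 1, the least neuronal, 4183, 4383 and 2343 CPM in bin 7, and 374, 341 and 331 CPM in bin 10. The largest relative gap was in bin 9, with 1226, 1500 and 520 CPM. For the 40 S phase genes the knockout was below both repeats in bin 1 (4745, 5194 and 3600 CPM) and within their range in bin 8 (1659, 1430 and 1582 CPM). The knockout was below both again in bin 9 (1198, 1278 and 1115 CPM) and bin 10 (1001, 1024 and 941 CPM). Neurons made up 36.0%, 30.9% and 4.81% of bin 7, so the bins do not hold the same classes in both genotypes.

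Cdk1 and Cdc20 differed along these bins. In the wild type Cdk1 was 232 and 240 CPM in bin 1, highest at 250 and 269 CPM in bin 7, and still 114 and 120 CPM in bin 9. In the knockout it was 124 CPM in bin 1, 67.4 CPM in bin 7 and 13.7 CPM in bin 9. Cdc20 was 235, 240 and 140 CPM in bin 1, 217, 228 and 72.4 CPM in bin 7 and 75.1, 99.4 and 21.2 CPM in bin 9. Top2a was close between genotypes in bin 1 (484, 516 and 462 CPM) and was 238, 161 and 165 CPM in bin 8, so the knockout lay within the wild-type range there. The gap in bin 7 was thus larger for Cdk1 and Cdc20 than for Top2a (292, 349 and 237 CPM).

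**Figure D5:**
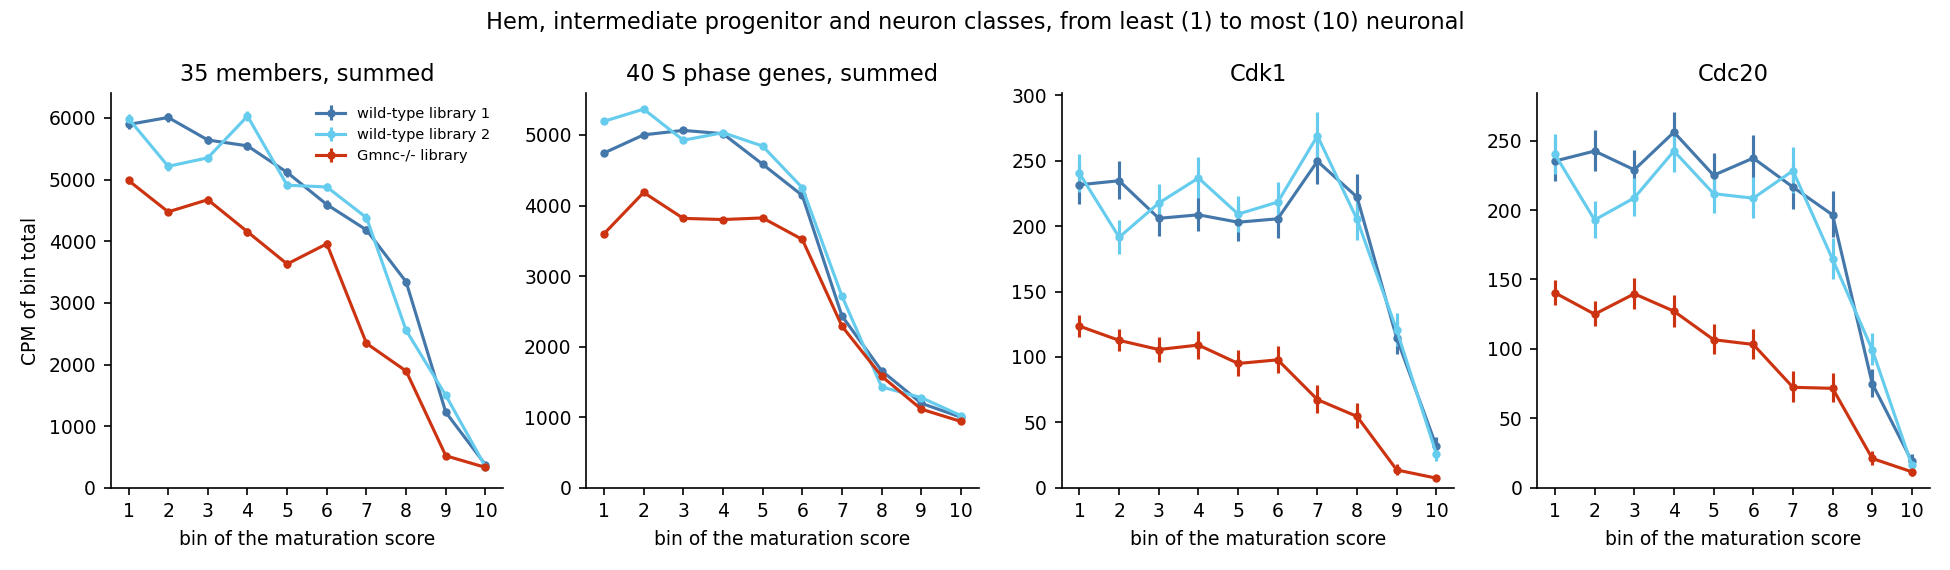
Summed CPM of the 35 members and of 40 S phase genes, and CPM of Cdk1 and Cdc20 (y axes from 0), in 10 bins of the maturation score from least (1) to most (10) neuronal, by library, with Poisson 95% intervals where drawn. Wild-type Cdk1 peaks in bin 7, where the summed members (4183 and 4383 CPM) are below their level in bin 1, and knockout Cdk1 and Cdc20 lie below both wild-type libraries in every bin.

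Members varied together from cell to cell to unequal degrees. Over 4813, 4101 and 6802 thinned hem and pallial progenitors, the correlation of a member with the sum of the others was highest for Ube2c (0.73, 0.73 and 0.70) and Cenpf (0.72, 0.71 and 0.74) in each library, while Cdca8 had 0.66 in each and Top2a 0.62, 0.61 and 0.66. It was lowest for Anln (0.21, 0.21 and 0.20), a gene detected in few cells. These cells share library and depth, and low counts lower such a correlation. Among cells with at least 5 members, those with Cdc20 had fewer S phase UMIs than those without it, by a log2 ratio of -0.72, -0.67 and -0.60. Ube2c (-0.60, -0.62 and -0.58), Ccnb2 (-0.58, -0.53 and -0.52) and Ccnb1 (-0.56, -0.57 and -0.53) were alike. Top2a stood at the other end with 0.21, 0.29 and 0.35, and Cdk1 was near 0 with -0.01, 0.00 and -0.07. Cells with Top2a therefore carried more S phase UMIs than those without it, and cells with Cdc20 or Ube2c fewer, in all 3 libraries. Cells with and without Cdk1 differed little.

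The other mitotic genes are a list of 49 with Foxm1, condensins and further kinesins. Called lower and higher were 0 and 1 of 41 well measured in hem progenitors (0.986% and 3.72% over all genes), 7 and 0 of 37 in intermediate progenitors (1.86% and 3.15%) and 1 and 1 of 39 in choroid plexus cells (3.00% and 3.98%). The hem and choroid plexus counts are near the share over all genes. In Cajal-Retzius-like neurons it was 12 and 0 of 18 (9.83% and 6.07% over all genes). Without sub-clusters 3 and 4 it was 4 and 0 of 16 (8.22% and 4.59% over all genes). Over the whole class Gtse1 (-3.78), Melk (-3.05) and Cks2 (-2.49) were lowest. In intermediate progenitors the lowest were Psrc1 (-1.45), Ccnf (-1.29) and Pimreg (-1.24). The gene called higher in hem progenitors (1.39) and choroid plexus cells (1.16) was Wee1, the kinase that holds Cdk1 inactive. Wee1 was also called higher in pallial progenitors (1.32) and mesenchyme (1.69).

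Few APC/C subunits and regulators outside the members were called. Of this list 0 of 18 well measured were called in hem progenitors (0.986% lower and 3.72% higher over all genes), 0 of 17 in intermediate progenitors (1.86% and 3.15%) and 0 of 17 in Cajal-Retzius-like neurons (9.83% and 6.07%). In choroid plexus cells 1 of 18 was called, beside 3.00% lower and 3.98% higher over all genes. It was Ube2s (-1.11), the enzyme that extends ubiquitin chains on the APC/C. Their medians were -0.27, -0.37, -0.40 and -0.30. Fzr1 was 74.7, 72.9 and 61.9 CPM in hem progenitors and 67.0, 65.7 and 39.9 CPM in intermediate progenitors.

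Of the 40 S phase genes, 2 were called lower and 1 higher of 37 in hem progenitors, 2 and 1 of 34 in intermediate progenitors, 1 and 1 of 36 in choroid plexus cells and 6 and 1 of 22 in Cajal-Retzius-like neurons. Over all genes the lower and higher shares in these classes were 0.986% and 3.72%, 1.86% and 3.15%, 3.00% and 3.98%, and 9.83% and 6.07%, so the choroid plexus counts are near the background. Their medians were -0.55, -0.64, -0.35 and 0.01. Mcm2 (-1.13 and -1.35) and Rrm2 (-1.10 and -1.29) were the lower ones in hem and intermediate progenitors. Pcna, the replication clamp, was the higher one in each of these classes, at 1.25, 1.45, 1.37 and 2.13. It was also higher in microglia (54.3, 58.0 and 156 CPM) and mesenchyme (38.1, 27.7 and 79.9 CPM). Per the file headers the knockout library was processed with a later Cell Ranger version than the wild-type libraries, which cannot be told apart from genotype in such single-gene differences. Of the cell cycle exit genes, Cdkn1a was lower in the knockout in intermediate progenitors (-2.34), choroid plexus cells (-3.49) and Cajal-Retzius-like neurons (-6.39).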

How the data were processed

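Single-cell 3′ RNA-seq was analysed from the deposited filtered matrices, whose values are UMI counts per gene and cell that the authors made with Cell Ranger. The version is 3.1.0 per the submitters' processing notes, while per the file headers the wild-type matrices carry 3.1.0 and the knockout matrix 6.0.0. The build is mm10 per the same notes, and no annotation release was given in the sources used here. The 27040 genes shared by Ensembl ID held 99.8%, 99.8% and 99.2% of 148073906, 139978761 and 259403297 UMIs. Groups were taken from the sample labels.

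Cells with at least 1000 genes, at least 2000 UMIs and at most 10% mitochondrial UMIs were kept. Doublets were predicted from simulated cell pairs at a rate of 0.8% per 1000 cells, and 941, 678 and 2488 cells (9.94%, 8.31% and 16.2%) were removed. Counts were scaled to 10000 per cell, and 2000 variable genes, 40 components, 20 neighbours and Leiden clustering at resolution 1 gave the clusters (leidenalg 0.10.2, igraph 0.11.9, scikit-learn 1.9.0, numpy 2.4.6, scipy 1.17.1, pandas 2.3.3, matplotlib 3.10.9, Python 3.11.15). Before the components were taken, each gene was centred and scaled separately within wild-type and within knockout cells. The same was done for the neuron sub-clusters. Mean differences between the genotypes therefore did not enter the clustering, and the effect of this on the classes was not tested. Cell cycle lists and 1846 genes correlated with them above 0.15 were left out of clustering. That step, the lower score of 0.5 asked of pallial clusters, the margin of 1 between neuron types and the comparisons without neuron sub-clusters were chosen after seeing the data. A class name asked for at least 3 markers and a score of 1. Pallial clusters needed a score of 0.5 and a depth of at least 0.5 of the library median. Clusters 10, 12 and 17 stayed unnamed (606, 589 and 1548 cells), with best scores of 0.32, 0.53 and 0.71. Clusters 10 and 17 passed the pallial score (0.72 and 0.95) but not the depth (0.36 and 0.46). After thinning, which left out 21.6%, 23.4% and 49.2% of unnamed cells, 74.9%, 76.3% and 76.2% had at least 5 members.

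UMIs were summed per class and library. Shares of cells were taken after thinning each cell to 4000 UMIs, leaving out shallower cells. The fold rule and intervals were tested on simulated data. Values are named for Top2a, Mki67, Cdk1, Ccnb1, Cdc20, Ube2c, Aurka and Plk1, for members called, for the 3 highest and 3 lowest ratios of a comparison, and for up to 3 genes a side of other lists; other names, such as those of sub-clusters, Fzr1, Pcna and Wee1, were chosen after their values were seen. The members and lists were chosen with earlier results of these data known. Alternatives covered the resolution, clustering genes, doublets, depth, scaling, pseudocount, low-value filter, neuron sub-clusters and each wild-type library.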

Additional observations from a re-analysis of the deposited data

How the results depend on the processing

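Among values recomputed under alternatives, 420 stayed within their spread or range, 96 moved and 8 changed sign. For those that moved or changed sign the cause was not tested. Apart from the shares given above, the share of all genes called was not taken under the alternatives. The added settings, all chosen after seeing the data, were cycle-correlated genes allowed in clustering, clusters holding 20 or more cells from both genotypes, wild-type shared barcodes left out, and neurons without sub-cluster 4 or without sub-clusters 3 and 4. Clusters of both genotypes left 7 and 10 wild-type Cajal-Retzius-like cells, so no value of that class was taken there. No paired analysis was possible because the labels pair no wild-type library with the knockout library. Each genotype is 1 suspension, so replicate error between embryos is unknown, and depth was lower in the knockout.

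For knockout over wild type, the median of intermediate progenitors (-0.84) was -0.67 at resolution 2, -0.60 with doublets kept and -0.61 with cycle-correlated genes allowed, and the 13 members called lower became 7 and 8 in the latter pair. The choroid plexus median (-0.55) was -0.81 with cycle-correlated genes allowed and -0.82 in clusters of both genotypes, and its 4 lower members became 2 with doublets kept and 10 in each of those settings. The neuron median (-0.75) was 0.25 at resolution 2, 0.40 with doublets kept, 0.29 in clusters of both genotypes, -0.33 without sub-cluster 4 and 0.20 without sub-clusters 3 and 4. Its 6 lower members became 1, 1, 0, 3 and 1, and 3 were called higher with doublets kept. For Cajal-Retzius-like neurons the median (-1.35) was -0.26 at resolution 2 and -0.29 without sub-clusters 3 and 4, and the 9 lower members became 2 in each. Leaving out either wild-type library gave 4 to 9 lower members in choroid plexus cells, the 9 without library 1.

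Against wild-type hem progenitors, the pallial median (0.00) was 0.17 at resolution 2, 0.14 with median-ratio size factors and -0.10 with cycle-correlated genes allowed. The intermediate progenitor median (-0.42) was -0.65 at resolution 2, -0.15 with the cell cycle lists allowed, -0.24 with doublets kept and -0.51 with cycle-correlated genes allowed. The choroid plexus median (-0.20) was -0.10 with doublets kept, 0.0028 with cycle-correlated genes allowed, 0.033 in clusters of both genotypes and -0.28 to -0.14 without either library. The neuron median (-3.02) was -3.72 at resolution 2, -1.76 with doublets kept, -2.65 with a pseudocount of 5 CPM -3.70 in clusters of both genotypes and -3.62 without sub-clusters 3 and 4.

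The difference in the share of cells with at least 5 members, in percentage points, was -5.96 in hem progenitors and became -1.96 with the lists allowed, -2.60 with doublets kept, -2.75 in cells with at least 4000 UMIs and -2.95 without shared barcodes. In pallial progenitors (-2.47) it was -5.88 at resolution 2 and -0.15 at 10 members. In intermediate progenitors (-15.2) it was -9.42 with cycle-correlated genes allowed. In choroid plexus cells (-18.7) it was -13.5 with doublets kept, -13.1 at 2000 UMIs, -7.88 at 10 members and -30.3 with cycle-correlated genes allowed. In neurons (-11.4) it was -1.48 at resolution 2, 2.58 with doublets kept, -2.23 at 2000 UMIs, -1.09 at 10 members, -13.85 with cycle-correlated genes allowed 1.08 in clusters of both genotypes, -6.49 without sub-cluster 4 and -0.42 without sub-clusters 3 and 4. Cdk1 stayed below 0 in every setting run, between -4.18 and -2.48 in Cajal-Retzius-like neurons, -3.66 and -0.95 in neurons (-0.95 in clusters of both genotypes), -2.05 and -1.51 in choroid plexus cells and -1.85 and -1.31 in intermediate progenitors. In neurons Cdc20 lay between -1.96 and -0.26 (nearest 0 in clusters of both genotypes) and Aurka between -2.42 and -0.29 (nearest 0 with doublets kept). In Cajal-Retzius-like neurons Cdc20 lay between -2.48 and -0.75 and Aurka between -3.27 and -1.60.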
